A study of Homo sapiens with 33 samples.

Results

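The genes described here are the protein coding genes for subunits of potassium, sodium and calcium channels and of hyperpolarization-activated channels. They were chosen by gene symbol alone, as KCN, SCN with a number and the letter A or B, CACN and HCN, and number 141 of the 58735 genes in the count table, of which 19951 are protein coding. All libraries were bulk RNA-seq of H9, a human embryonic stem cell line, as clone 24 of H9-DDdCas9VP192-FOXL2, which carries an inducible activator of transcription and guides directed at FOXL2, a forkhead transcription factor of the ovary. The cells were differentiated towards gonadal cells and sampled at day 4, before any induction, and every other day from day 6 to day 14, in IM medium alone (CTRL) or with doxycycline and trimethoprim added from day 4 (IND). This gave 11 groups of 3 libraries, which the study describes as technical replicates of 1 biological replicate. An adjusted p therefore measures the spread between wells of 1 differentiation of 1 clone, and since no group received the 2 compounds without the activation, their effects and that of FOXL2 cannot be told apart.

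Ion channels of these families are membrane proteins with a pore subunit that opens on voltage, ligands or intracellular calcium, joined by auxiliary subunits that set its gating and its delivery to the membrane. Potassium channels hold or restore the resting potential, sodium channels carry the upstroke of the action potential, calcium channels turn depolarization into calcium entry, and HCN channels carry the pacemaker current of heart and neurons. They are best known from excitable cells, and many of them are also found in dividing progenitors and in epithelia.

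The libraries held between 23.9 M and 51.9 M counts (M, 1e6), with a median of 41.4 M. Levels are given as CPM, counts per 1e6 counts after TMM scaling, and levels of different genes are compared only as FPKM, which the authors scaled to gene length. A count of 3 or fewer in a library was treated as the floor, which lay between 0.0565 and 0.130 CPM and covers counting error only. FOXL2 itself ranged from 148 to 577 CPM over the 15 IND libraries and did not exceed 0.388 CPM in the 18 others. Day 10 IND replicate 2 stood apart from the other libraries: it had the fewest counts, the fewest channel genes above the floor (100, against 103 to 126 elsewhere) and the lowest mitochondrial share (0.691%, against at least 1.14%). Its 8 pluripotency markers summed to 2018 CPM, against 438 and 517 CPM in the other day 10 IND libraries, and the day 10 counts and the genes named for that day are given with and without it. Strand was not kept in the libraries, which leaves the counts of genes facing an overlapping neighbour on the other strand (CACNA1C with DCP1B, CACNA1H with TPSG1, HCN3 with CLK2 and PKLR among them) uncertain, like those of near-identical copies such as KCNE1 and KCNE1B.

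Of the 141 channel genes, 2 (KCNA6 and KCNA10) had no count in any library, 5 were at the floor in all 33 libraries, 80 were above it in all and 56 in some. A mean of at least 1 FPKM in at least 1 group was reached by 53 genes, and 10 FPKM by 11. The highest mean over the 11 groups was that of CACNA1H, the pore of a low-voltage-activated (T-type) calcium channel, with 21.4 FPKM. KCNK5, a background potassium channel with tandem pore domains, followed with 18.4 FPKM, KCNH2, the pore of the rapid delayed rectifier of the heart, with 12.1 FPKM, and the calcium channel subunit CACNB3 with 10.7 FPKM. The inward rectifier KCNJ4 (9.13 FPKM), CACNG4 (7.49 FPKM), KCNK6 (7.22 FPKM), CACNG7 (6.28 FPKM) and HCN4 (5.24 FPKM) were also among the 10 highest. By family, 3 of 4 HCN genes, 9 of 14 potassium channel auxiliary subunits and 7 of 16 inward rectifiers reached 1 FPKM, while 2 of 10 sodium channel pore genes and 7 of 30 voltage-gated potassium channel pore genes did.

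Without induction, channel genes mostly rose as differentiation went on. Against day 4, 31 of 100 channel genes tested differed at day 6 by edgeR's quasi-likelihood test at a Benjamini-Hochberg adjusted p under 0.05 (21 higher and 10 lower), beside 21.6% of all genes tested. At day 8 the count was 52 of 103 (38 higher, 14 lower, 37.1% of all genes), at day 10 it was 62 of 107 (46 and 16, 45.1%) and at day 12 it was 69 of 112 (55 and 14, 48.1%). At day 14, 77 of 111 differed, against 47.6% of all genes, and 62 of these were higher, a direction in which 24.6% of all genes tested were called. Their median log2 fold change over day 4 at day 14 was 1.14, that of all genes tested 0.00. Day 4 and CTRL libraries did not overlap for 47 of 100 channel genes at day 6 (39.4% of all genes), 60 of 103 at day 8 (51.5%), 74 of 107 at day 10 (57.6%), 80 of 112 at day 12 (59.4%) and 85 of 111 at day 14 (58.6%). All of these comparisons use the same day 4 libraries, and only the day 6 count moved by over 1.5 times when 1 library was left out, to 19 without day 4 replicate 1 or CTRL replicate 1 and to 20 without CTRL replicate 3.

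The largest gains at day 14 were in genes that were close to silent at day 4. KCNE4, an auxiliary subunit that inhibits certain voltage-gated potassium channels, had no count in the day 4 libraries and 5.56, 4.04 and 7.31 CPM in the CTRL libraries of day 14, at least 51.7-fold above the floor of 3 counts per library. KCNA2, a delayed rectifier of axons, went from no count to 1.95, 2.25 and 1.67 CPM, at least 17.9-fold above that floor. CACNG4, a calcium channel gamma subunit that also accompanies AMPA receptors, stood at 1.60, 0.624 and 1.68 CPM at day 4 and at 46.0, 49.7 and 38.2 CPM at day 14 (log2 fold change 5.10, SE 0.30, adjusted p = 2.86e-06). For each of these genes the day 4 and day 14 libraries were far apart. SCN3A, a sodium channel of developing neurons whose gene overlaps SCN2A on the other strand, rose by a log2 fold change of 5.92 (SE 0.73). KCNH6 of the ether-a-go-go family rose by 6.17 (SE 0.75), and KCND2, a pore of the fast transient potassium current, by 5.32 (SE 0.50). The highest count in a day 4 library was 13 for SCN3A, 4 for KCNH6 and 7 for KCND2, so these folds rest on few day 4 counts.

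Fewer channel genes were lost with differentiation. KCNK5, the most abundant channel gene at day 4 by FPKM, fell from 204, 167 and 260 CPM to 26.4, 37.5 and 23.1 CPM at day 14 (log2 fold change -2.85, SE 0.22, adjusted p = 1.02e-05). KCND3, a relative of KCND2, had 7.16, 5.34 and 6.08 CPM at first and ended with 1.02, 0.808 and 0.691 CPM (-2.86, SE 0.28), a fall where KCND2 rose. Among the other genes that fell were CACNA1I, a T-type pore (-1.91, SE 0.24), and CACNA2D4, an alpha2delta subunit whose gene overlaps LRTM2 on the other strand (-2.47, SE 0.32). CACNA1F, an L-type pore known from the retina, had a log2 fold change of -1.95 (adjusted p = 0.0179), but its call was lost without either of 2 day 4 libraries (replicate 1, 0.0554, and replicate 2, 0.0604) and without any CTRL library (0.0546, 0.0568 and 0.0628).

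**Figure D1:**
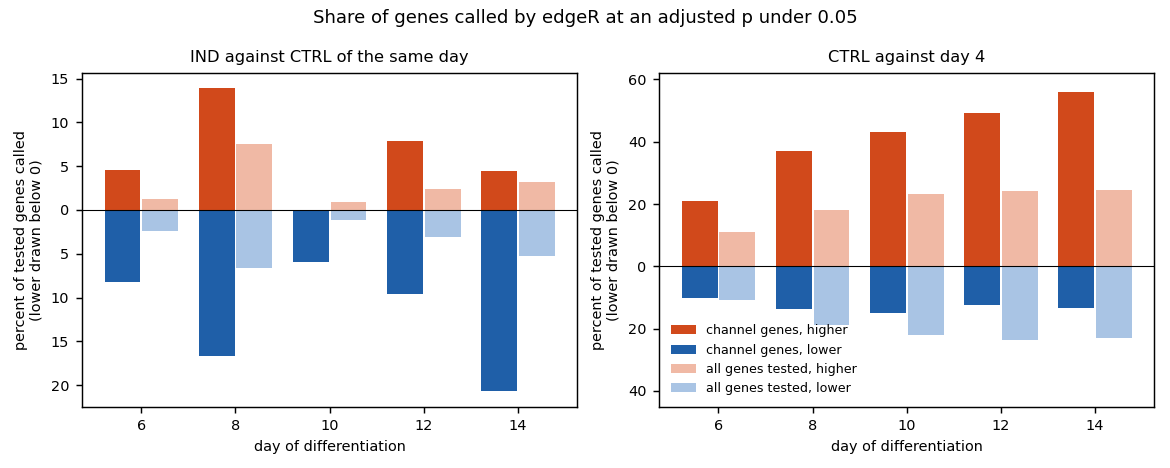
Percent of tested genes called at an adjusted p under 0.05 (y axis, lower drawn below 0) by day of differentiation (x axis), for the channel genes (dark) and all genes tested (light), in IND against CTRL (left) and CTRL against day 4 (right). At day 14, 62 of 111 channel genes were higher in CTRL than at day 4, and 23 of 111 were lower in IND than in CTRL.

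With induction, the channel genes that differed from CTRL of the same day included falls on every day and rises on every day except day 10. At day 6, 14 of 110 channel genes tested differed, beside 3.66% of all genes: 5 were higher (1.29% of all genes) and 9 lower (2.37%). The count was 6 when CTRL replicate 1 was dropped, 9 for CTRL replicate 3, 8 for IND replicate 2 and 9 for IND replicate 3. At day 8, 33 of 108 differed (14.2% of all genes), 15 higher (7.49%) and 18 lower (6.67%). At day 12, 20 of 115 differed (5.42%), 9 higher (2.38%) and 11 lower (3.04%), and the count was 12 without CTRL replicate 1 or 2 and 11 without CTRL replicate 3 or IND replicate 2. At day 14, 28 of 111 differed (8.43%), 5 higher (3.21%) and 23 lower (5.22%), and the count was 17 without CTRL replicate 1 and 18 without IND replicate 2.

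Day 10 gave 7 of 117 genes (2.03% of all genes), all of them lower in IND (1.18%) and 0 higher (0.856%). Without IND replicate 2, the library that stood apart, 50 of 119 channel genes differed (18.2% of all genes), 25 higher (8.74%) and 25 lower (9.51%), and these included the same 7. Without CTRL replicate 1 or CTRL replicate 2 the count was 0, and it was 2 without CTRL replicate 3, IND replicate 1 or IND replicate 3. By DESeq2, 31 channel genes were called at day 10 (9.30% of all genes), and 46 had an unadjusted p under 0.05 in edgeR (14.9%).

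The 7 calls of day 10 included those of 6 genes described further on. With all libraries the log2 fold change was -2.59 (SE 0.42, adjusted p = 0.0376) for KCNJ3, -1.68 (SE 0.25, 0.0279) for KCNJ5, -2.14 (SE 0.15, 0.00425) for KCNMA1, -1.44 (SE 0.21, 0.0276) for SCN3B and -0.96 (SE 0.17, 0.0476) for CACNA1G, beside HCN4. Without IND replicate 2 it was -2.23 (1.38e-08), -1.74 (6.17e-05), -2.02 (4.33e-09), -1.65 (1.51e-06) and -0.97 (0.000365) in the same order. The direction was the same in both fits. The call of KCNMA1 was lost without CTRL replicate 1 (0.0665) or 2 (0.05001). Those of KCNJ3 (0.218, 0.189, 0.122, 0.0829 and 0.131), KCNJ5 (0.186, 0.173, 0.120, 0.0781 and 0.0951), SCN3B (0.175, 0.162, 0.0834, 0.0979 and 0.0993) and CACNA1G (0.285, 0.268, 0.0996, 0.108 and 0.172) were lost without CTRL replicate 1, 2 or 3 or IND replicate 1 or 3.

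Over the 5 days, 57 of the 120 channel genes that could be tested on at least 1 day were called, beside 19.4% of all genes, 22 only as higher (9.01% of all genes) and 35 only as lower (10.1%), while 21 genes never passed the filter on low counts. The median log2 fold change of the channel genes tested went from 0.02 at day 6 and 0.10 at day 8 to -0.02 at day 10, -0.19 at day 12 and finally -0.21 at day 14, while that of all genes tested lay between -0.01 and 0.02. Without IND replicate 2 the day 10 median was -0.04, beside 0.01 for all genes. The CTRL and IND libraries did not overlap for 31 of 110 channel genes at day 6 (19.1% of all genes), 53 of 108 at day 8 (33.1%), 58 of 117 at day 10 (30.9%), 59 of 115 at day 12 (30.3%) and 48 of 111 at day 14 (26.7%). Without IND replicate 2 they did not overlap for 77 of 119 at day 10 (46.0%). The 7 genes called on 4 or 5 days were all lower in IND, among them HCN4 and KCNJ3 on all 5 days and KCNMA1, KCNJ5, SCN3B and CACNA1G on 4. Without the day 10 calls, a tally added after the data were seen, HCN4 and KCNJ3 were called on 4 days and these other genes on 3. No gene was higher on 4 or 5 days with all libraries. Without IND replicate 2, however, KCNK1 (log2 fold change 0.75, adjusted p = 0.000438 by edgeR), KCNE5 (1.28, 0.0176) and CACNA1I (1.23, 0.00372) were higher at day 10. All of them were also called higher at days 6, 8 and 12. Of those calls, the ones of KCNE5, of CACNA1I at days 6 and 12 and of KCNK1 at day 12 were lost without some single libraries.

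**Figure D2:**
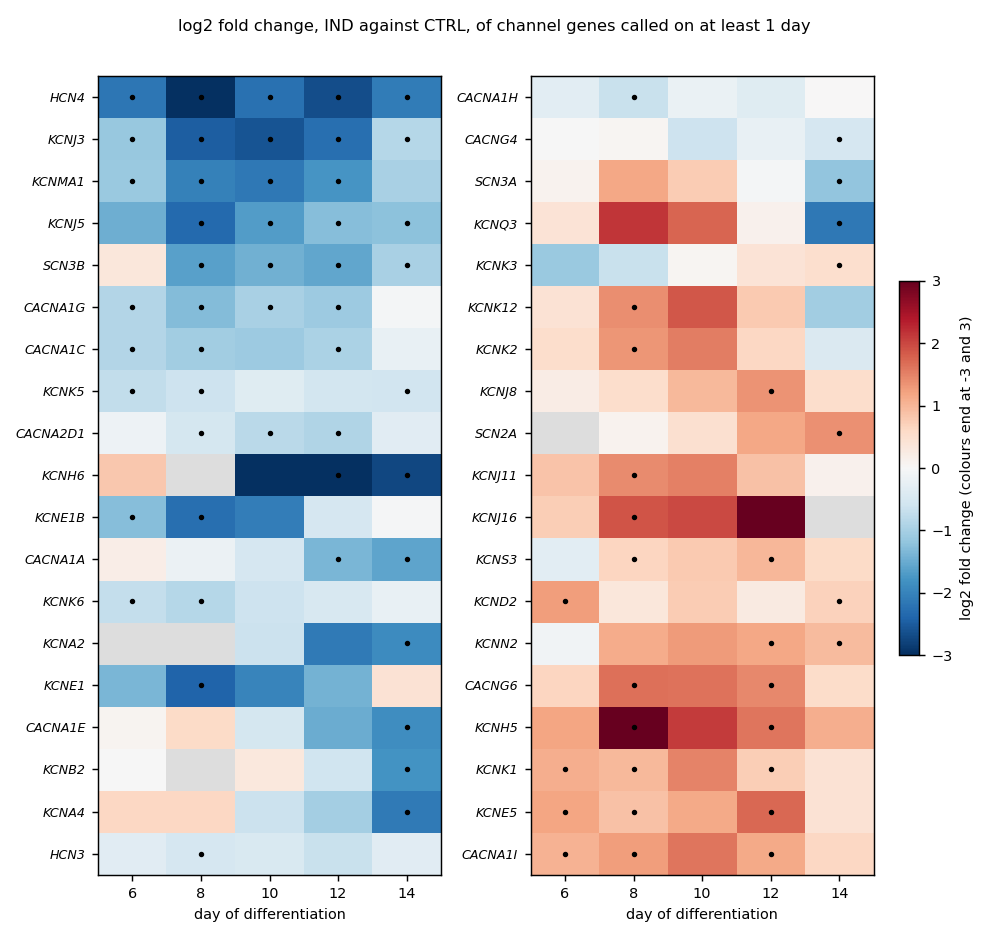
log2 fold change of IND against CTRL (colour, ending at -3 and 3) for 38 of the 57 channel genes called on at least 1 day, those named in the text (from top to bottom) on each day of differentiation (from left to right). Dots mark calls at an adjusted p under 0.05 and grey cells were not tested; HCN4 and KCNJ3 carry a dot on all 5 days.

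HCN4 (ENSG00000138622, GRCh38 chr15:73319859-73369264, minus strand), the main pacemaker channel of the sinoatrial node, differed on all 5 days. At day 4 it stood at 6.51, 5.79 and 9.89 CPM. The CTRL libraries then had 34.5, 31.1 and 23.5 CPM at day 6, 55.5, 75.2 and 74.9 CPM at day 8 and 105, 88.3 and 90.7 CPM at day 10, whereas the IND libraries had 5.76, 7.78 and 6.01 CPM, 6.68, 10.0 and 7.90 CPM, and 17.9, 25.3 and 16.9 CPM. The rise of HCN4 seen in CTRL was thus small in IND, and on none of these days did the groups overlap. At day 12 the CTRL libraries had 60.7, 98.3 and 103 CPM against 11.8, 14.8 and 15.0 CPM in IND, and at day 14 they had 67.8, 45.2 and 82.0 CPM against 12.7, 16.6 and 16.3 CPM. The log2 fold change was -2.17 (SE 0.17, adjusted p = 1.53e-06) at day 6, -3.05 (SE 0.17, 1.32e-05) at day 8, -2.24 (SE 0.19, 0.00673) at day 10, -2.66 (SE 0.22, 0.000666) at day 12 and -2.09 (SE 0.23, 0.00162) at day 14. The HCN4 calls of days 6, 8, 12 and 14 held in all 11 alternatives, while that of day 10 was lost when CTRL replicate 1 (0.0666) or CTRL replicate 2 (0.0533) was dropped, and held without IND replicate 2 (3.50e-09).

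KCNJ3 (ENSG00000162989, chr2:154698299-154858352, plus strand) and KCNJ5 (ENSG00000120457, chr11:128891356-128921035, plus strand) encode the inward rectifiers that together form the acetylcholine-activated potassium channel of the atrium. KCNJ3 had 7.82, 8.91 and 7.02 CPM at day 4. In CTRL it reached 37.7, 51.96 and 43.0 CPM at day 6, 51.8, 54.1 and 55.0 CPM at day 8 and 31.8, 31.4 and 29.6 CPM at day 12, against 19.7, 20.01 and 20.1 CPM, 7.86, 11.1 and 9.71 CPM and 4.98, 6.83 and 7.49 CPM in IND. KCNJ3 therefore rose by day 6 in both groups and by day 8 was back near its day 4 level in IND alone, where it was lower than in every CTRL library. Its log2 fold change was -1.13 (SE 0.12) at day 6, -2.48 (SE 0.12, adjusted p = 6.09e-07) at day 8, -2.27 (SE 0.17) at day 12 and -0.87 (SE 0.22, 0.0417) at day 14, when CTRL had 21.0, 17.1 and 28.0 CPM and IND 11.0, 9.52 and 15.6 CPM. The day 14 call was lost without CTRL replicate 1 (0.1002), IND replicate 1 (0.131) or IND replicate 2 (0.114).

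KCNJ5 rose later, and reached 1.27 FPKM in CTRL at day 12, when KCNJ3 had 6.12 FPKM. The CTRL libraries had 2.57, 3.56 and 3.61 CPM at day 8 and 6.89, 7.595 and 8.79 CPM at day 12, and the IND libraries 0.514, 0.759 and 0.651 CPM and 3.46, 2.90 and 3.31 CPM. Its log2 fold change was -2.32 (SE 0.27, adjusted p = 0.000234) at day 8, -1.27 (SE 0.19) at day 12 and -1.23 (SE 0.27, 0.0129) at day 14, and the last call was lost without IND replicate 3 (0.0689). At day 6, when it was near its day 4 level in CTRL, it was not called. KCNJ5 was in this way lower in IND at days 8, 12 and 14, though its gene overlaps C11orf45 on the other strand, which leaves its counts uncertain.

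KCNMA1 (ENSG00000156113, chr10:76869601-77638369, minus strand), the pore of the large-conductance calcium-activated potassium channel, was already abundant at day 4, with 48.7, 41.8 and 54.1 CPM. In CTRL it stayed between 42.4 and 74.4 CPM from day 6 to day 12. In IND it had 39.1, 28.4 and 23.5 CPM at day 6, 10.9, 15.4 and 19.97 CPM at day 8 and 12.96, 19.4 and 17.98 CPM at day 12, below every CTRL library of the same day and below day 4. The log2 fold change was -1.11 (SE 0.18) at day 6, a call lost without CTRL replicate 1 (0.114), -2.04 (SE 0.21, adjusted p = 0.00101) at day 8 and -1.77 (SE 0.21, 0.00347) at day 12. At day 14, with 41.5, 21.5 and 47.1 CPM in CTRL and 15.6, 18.5 and 21.5 CPM in IND, it was not called. Here the difference was a loss from the day 4 level, unlike that of HCN4.

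SCN3B (ENSG00000166257, chr11:123629187-123655244, minus strand), an auxiliary subunit of voltage-gated sodium channels, started at 0.509, 0.659 and 0.711 CPM at day 4 and by day 14 had risen in CTRL to 18.5, 17.8 and 21.9 CPM, against 10.2, 8.35 and 10.9 CPM in IND. At day 6 the groups overlapped, with 2.57, 1.60 and 1.30 CPM in CTRL and 2.71, 2.36 and 1.79 CPM in IND. From day 8 on they did not: the log2 fold change was -1.64 (SE 0.21, adjusted p = 0.000526) at day 8, -1.57 (SE 0.18, 0.00254) at day 12 and -0.97 (SE 0.14, 0.000831) at day 14. SCN3B was the only sodium channel gene called lower on more than 1 day.

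The T-type calcium channel genes moved apart. CACNA1G (ENSG00000006283, chr17:50561068-50627474, plus strand) had 28.7, 16.8 and 22.5 CPM in CTRL at day 6, 19.7, 14.9 and 17.7 CPM at day 8 and 34.2, 23.4 and 26.2 CPM at day 12, and 14.5, 11.3 and 10.9 CPM, 5.34, 7.47 and 8.24 CPM and 12.5, 13.7 and 13.2 CPM in IND, with no overlap. Its log2 fold change was -0.87 at day 6 (adjusted p = 0.0134, lost without CTRL replicate 1, 0.0831, CTRL replicate 3, 0.0522, or IND replicate 2, 0.0881), -1.30 (SE 0.17, 0.000539) at day 8 and -1.09 (SE 0.16, 0.00727) at day 12. At day 14 the groups had come together, with 40.0, 40.8 and 34.6 CPM in CTRL and 39.7, 36.2 and 35.2 CPM in IND (log2 fold change -0.05). CACNA1I went the other way. It was higher in IND at day 8, with 7.91, 6.86 and 4.25 CPM against 2.60, 3.15 and 2.22 CPM in CTRL (log2 fold change 1.26, SE 0.25, adjusted p = 0.00623). CACNA1H, the third T-type gene and the most abundant, was called only at day 8 with all libraries, with 184, 184 and 209 CPM in CTRL and 120, 124 and 116 CPM in IND (-0.67, SE 0.07, 0.000171). Without day 10 IND replicate 2 it was also lower in IND at day 10 (-0.55, 0.00140).

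Among the other calcium channel subunits, CACNA1C, the L-type pore of heart and smooth muscle, had 22.4, 21.8 and 22.0 CPM in CTRL at day 12 and 10.9, 11.5 and 12.0 CPM in IND (log2 fold change -0.94, SE 0.12, adjusted p = 0.00449). CACNA2D1, an alpha2delta subunit, had 44.8, 34.9 and 42.0 CPM in CTRL and 28.4, 27.0 and 28.5 CPM in IND at day 8 (-0.52, SE 0.10, 0.00526). Both were lower in IND without overlap on these days. With all libraries, none of the 4 beta subunit genes was called on any day. Among the 5 gamma subunit genes tested CACNG6 was higher on 2 days and CACNG4 lower on 1, a call lost in 1 fit over all libraries (0.160). Without day 10 IND replicate 2, CACNG6 was also higher at day 10 (1.29, 0.000118), and CACNG4 (-0.52, 0.00361) and CACNG7 (-0.56, 0.00343) were lower.

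In summed CPM over the channel genes, the CTRL libraries were above the IND libraries at day 8 (1224 to 1325 against 895 to 948) and at day 14 (1548 to 1594 against 1280 to 1339). The difference between the group means of these sums was 348 CPM at day 8 and 252 CPM at day 14.

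The background potassium channels KCNK5 and KCNK6 were lower in IND at day 8. At day 8 KCNK5 averaged 75.9 ± 10.1 CPM in CTRL and 48.8 ± 6.48 CPM in IND (SD, n = 3, log2 fold change -0.63, SE 0.12, adjusted p = 0.00566 by edgeR), and KCNK6 averaged 42.2 ± 1.23 CPM and 23.1 ± 4.41 CPM (-0.86, SE 0.12, 0.00114). Both were also called lower at day 6 (-0.74, 0.0427, and -0.72, 0.0118), and KCNK5 at day 14 (-0.57, 0.0392). The day 6 call of KCNK5 was lost without CTRL replicate 1 (0.226) or 3 (0.179) or IND replicate 2 (0.112), that of KCNK6 without CTRL replicate 1 (0.0652) or IND replicate 3 (0.0513), and the day 14 call of KCNK5 without CTRL replicate 1 (0.0671) or 2 (0.102), without any IND library (0.104, 0.123 and 0.171) and in 1 fit over all libraries (0.0618). KCNK5 falls and KCNK6 rises along the CTRL course, so the shared direction in IND went with the CTRL course of one and against that of the other. The auxiliary subunit gene KCNE1B, whose counts cannot be kept apart from those of its copy KCNE1 with certainty, was lower in IND at day 6 (-1.28, SE 0.25, 0.00699, lost at 0.164 in 1 fit over all libraries) and day 8 (-2.26, SE 0.25, 0.000175).

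**Figure D3:**
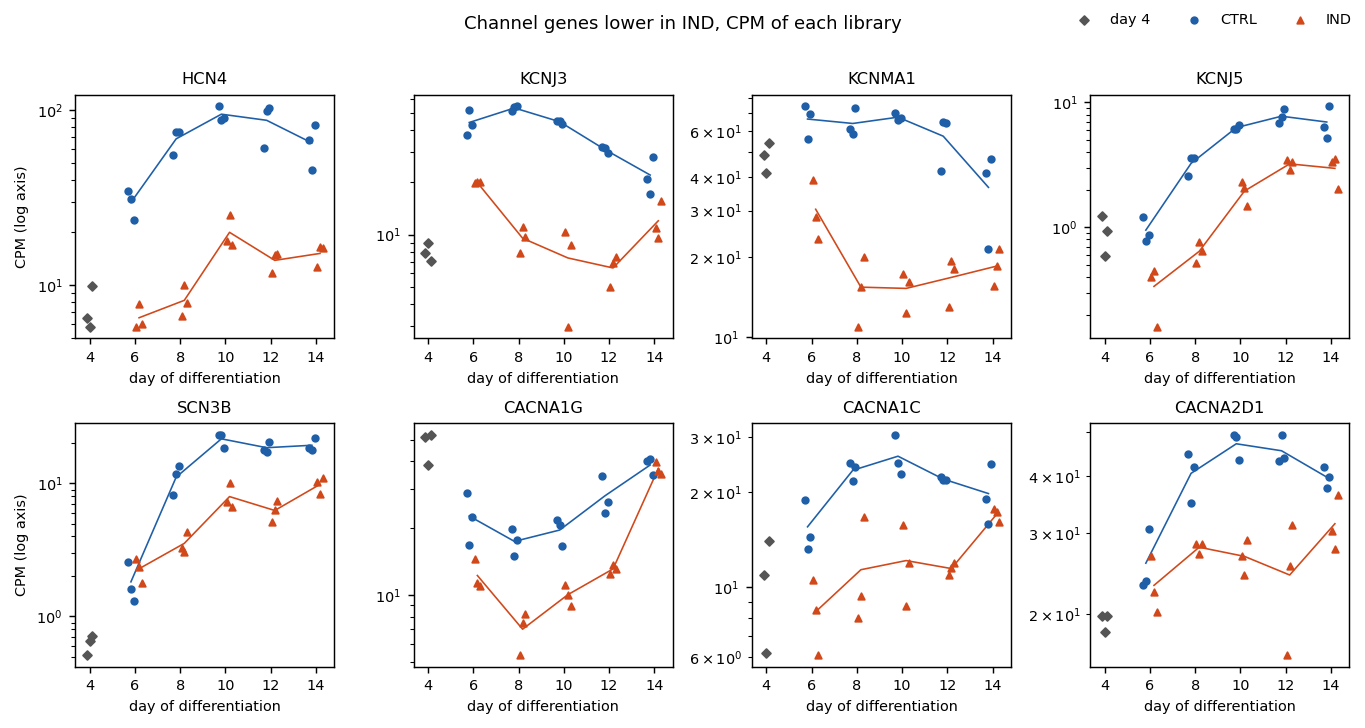
CPM (y axis, log scale) of 8 channel genes lower in IND, by day of differentiation (x axis). Each point is 1 library, lines join group means, with diamonds for day 4, circles for CTRL and triangles for IND; for HCN4 all IND libraries lie below all CTRL libraries of the same day.

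The bases before a RefSeq start are shown for 4 genes lower in IND on 4 or 5 days and for KCNK1, because FOXL2 belongs to the forkhead factors. Binding of FOXL2 to these bases was not tested. RefSeq windows of 300 bases, from 250 before to 50 after a start on GRCh38.p14, were matched by symbol for 101 of the 141 channel genes, with 153 windows since some genes have several starts, and for 4 of the 7 genes lower in IND on 4 or 5 days. On both strands, the letters TGTTTNC, a core of forkhead motifs, were in 17.0% of the channel windows and in 17.99% of all 35116 windows in the table. The letters GGGCGG, known as the GC box, were in 52.9% and 45.0%. None of the 5 windows of HCN4, KCNJ3, KCNJ5 and KCNMA1 held TGTTTNC, and 4 held GGGCGG. For channel genes higher in IND on at least 1 day, 6 of 24 windows held TGTTTNC, so most did not. For those lower on at least 1 day, 3 of 28 did. Whether these shares differ was not tested, and KCNK1 is shown as an example with a match. For HCN4, KCNJ3 and KCNMA1 the RefSeq starts differ from those of the gene spans given above, which come from the count table, and the windows lie inside those spans, while for KCNJ5 the starts are the same. The 250 bases before the RefSeq start of these 4 genes, and for KCNMA1 before the outer of its 2 starts, are given 5′ to 3′ on the strand of the gene with GGGCGG or its complement in capitals, together with those of KCNK1, a gene higher in IND on 3 days, with its match to TGTTTNC, which lies on the opposite strand, in capitals. The printed bases of HCN4 lie at chr15:73368959-73369208 (minus strand), KCNJ3 at chr2:154698445-154698694 (plus), KCNJ5 at chr11:128891106-128891355 (plus), KCNMA1 at chr10:77637809-77638058 (minus) and KCNK1 at chr1:233613856-233614105 (plus).
HCN4: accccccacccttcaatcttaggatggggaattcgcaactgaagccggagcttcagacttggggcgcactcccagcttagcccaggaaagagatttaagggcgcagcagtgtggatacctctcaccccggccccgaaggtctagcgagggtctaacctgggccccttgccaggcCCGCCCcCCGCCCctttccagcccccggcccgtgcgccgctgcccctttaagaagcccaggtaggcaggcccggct
KCNJ3: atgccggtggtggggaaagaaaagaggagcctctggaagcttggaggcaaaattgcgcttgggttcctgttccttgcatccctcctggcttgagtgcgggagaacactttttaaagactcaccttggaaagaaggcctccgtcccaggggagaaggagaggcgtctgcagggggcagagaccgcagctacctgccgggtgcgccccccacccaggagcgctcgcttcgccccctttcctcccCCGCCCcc
KCNJ5: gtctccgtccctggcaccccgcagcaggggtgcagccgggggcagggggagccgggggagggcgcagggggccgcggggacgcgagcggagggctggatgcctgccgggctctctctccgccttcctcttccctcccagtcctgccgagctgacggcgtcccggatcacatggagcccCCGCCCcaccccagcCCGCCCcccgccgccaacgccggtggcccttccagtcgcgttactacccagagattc
KCNMA1: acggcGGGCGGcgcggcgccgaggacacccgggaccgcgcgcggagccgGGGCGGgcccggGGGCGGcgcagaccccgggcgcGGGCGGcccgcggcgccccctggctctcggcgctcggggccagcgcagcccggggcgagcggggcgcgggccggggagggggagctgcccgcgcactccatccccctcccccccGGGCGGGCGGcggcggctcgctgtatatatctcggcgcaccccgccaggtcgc
KCNK1: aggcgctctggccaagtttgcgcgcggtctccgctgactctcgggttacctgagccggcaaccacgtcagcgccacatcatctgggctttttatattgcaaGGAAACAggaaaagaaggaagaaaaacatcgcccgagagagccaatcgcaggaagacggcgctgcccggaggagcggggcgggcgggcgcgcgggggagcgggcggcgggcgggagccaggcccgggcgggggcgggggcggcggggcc
These 250 bases had a GC content of 65.2% for HCN4, 62.4% for KCNJ3, 75.2% for KCNJ5, 85.6% for KCNMA1 and 69.2% for KCNK1. KCNMA1 held 6 GC boxes, a pair of them overlapping, HCN4 and KCNJ5 held 2 each and KCNJ3 held 1, which begins 8 bases before the start. In KCNK1 the GC boxes were left unmarked. Its full window, which runs on past the start, held 7 of them, as did the outer window of KCNMA1, so GC boxes did not set the lower genes apart from KCNK1. A match of letters is a description of the window and not a bound site.

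The genes higher in IND were mostly at low levels and, in the fits with all libraries, were called on fewer days. KCNH5, a pore subunit of the ether-a-go-go family, showed the largest rise. It had 0.200, 0.289 and 0.241 CPM in CTRL at day 8 and 3.78, 3.19 and 2.69 CPM in IND (log2 fold change 3.73, SE 0.30, adjusted p = 2.21e-05), and the groups were far apart. At day 12 the log2 fold change was 1.61 (SE 0.31, 0.0193), a call lost without any CTRL library (0.0610, 0.0865 and 0.0889), IND replicate 2 (0.0665) or IND replicate 3 (0.0573).

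KCNK1, a weakly inward-rectifying channel with tandem pore domains, was called on 3 days with all libraries. At day 6 it had 4.08, 5.00 and 4.25 CPM in CTRL and 11.9, 8.37 and 7.62 CPM in IND (log2 fold change 1.08, SE 0.20, adjusted p = 0.00454). At day 8 it had 6.48, 9.19 and 7.86 CPM against 15.1, 14.2 and 16.2 CPM (0.97, SE 0.14, 0.00125). In neither case did the libraries overlap. At day 12 the log2 fold change was 0.73 (0.0162), a call lost without CTRL replicate 1 (0.0770), 2 (0.0733) or 3 (0.0693) or IND replicate 2 (0.0588) and in 1 fit over all libraries (0.0983).

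The gamma subunit CACNG6 kept its day 4 level in CTRL and was higher in IND. It had 5.44, 7.96 and 4.31 CPM in CTRL at day 8 and 21.5, 20.04 and 13.9 CPM in IND (log2 fold change 1.66, SE 0.24, adjusted p = 0.00252), and 5.16, 6.58 and 7.15 CPM against 18.1, 20.2 and 13.1 CPM at day 12 (1.45, SE 0.21, 0.00654). Of the ATP-sensitive inward rectifiers, KCNJ11 was higher in IND at day 8, with 5.24, 4.99 and 2.81 CPM against 1.91, 1.88 and 1.10 CPM (1.42, SE 0.30, 0.00899), and KCNJ8 at day 12, with 9.03, 7.22 and 6.21 CPM against 2.75, 3.02 and 3.11 CPM (1.34, SE 0.20, 0.00726). For these genes too the IND libraries lay above all CTRL libraries.

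KCNN2, a small-conductance calcium-activated potassium channel, had 12.2, 14.4 and 11.8 CPM in IND at day 14 and 8.42, 5.90 and 5.61 CPM in CTRL (log2 fold change 0.94, SE 0.18, adjusted p = 0.00449), a call that held in all 11 alternatives. At day 12 its log2 fold change was 1.16 (0.0286), lost without CTRL replicate 2 (0.0844) or any IND library (0.0546, 0.0640 and 0.0735). KCNMA1 and KCNN2, both opened by calcium, thus went in opposite directions at day 12. KCNE5, an auxiliary potassium channel subunit whose gene overlaps ACSL4 on the same strand, was called higher on 3 days. Its log2 fold change was 1.19 at day 6, 0.88 at day 8 and 1.73 at day 12, and none of these 3 calls withstood leaving out single libraries. KCNE5 was lost at day 6 without CTRL replicate 1 (0.143) or 3 (0.0879) or IND replicate 3 (0.177), at day 8 without CTRL replicate 1 (0.145) or 3 (0.130) or IND replicate 1 (0.0828) or 2 (0.126), and at day 12 without any CTRL library (0.0910, 0.0942 and 0.0537) or IND replicate 2 (0.0553). Its calls of days 6 (0.0584) and 8 (0.114) were also lost in 1 fit over all libraries. KCNJ16 (1.90, SE 0.39), KCNK2 (1.33, SE 0.35) and KCNK12 (1.39, SE 0.34) were also higher at day 8, at low levels, and KCNJ16 (0.0827) and KCNK12 (0.101) were lost in 1 fit over all 33 libraries. The calls of KCNK2 and KCNK12, the latter with a gene overlapping it on the other strand, were lost without CTRL replicate 1 (0.0933 and 0.125) or 3 (0.119 and 0.0995) or IND replicate 1 (0.109 and 0.0836) or 2 (0.0950 and 0.101).

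**Figure D4:**
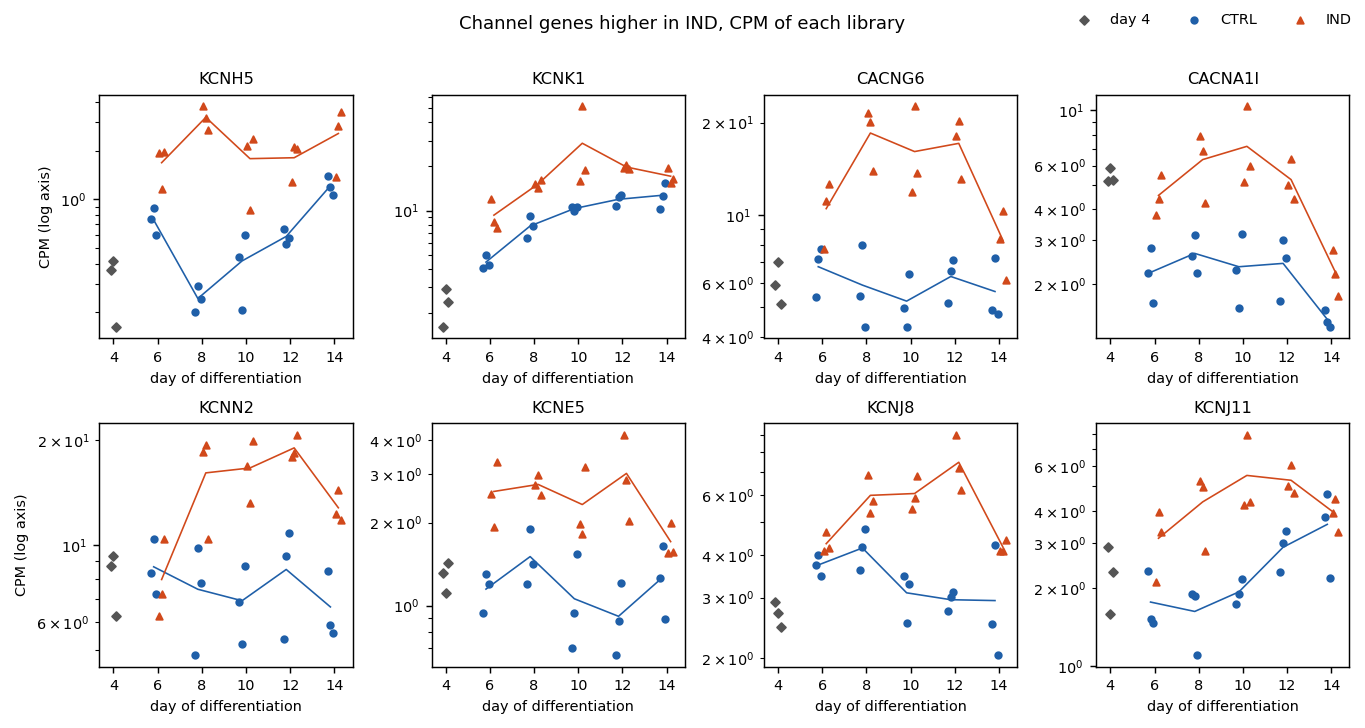
CPM (y axis, log scale) of 8 channel genes higher in IND, by day of differentiation (x axis). Each point is 1 library and lines join group means; at day 8 the IND libraries of KCNH5 lie at 2.69 CPM or more and the CTRL libraries at 0.289 CPM or less.

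The 23 genes lower in IND at day 14 included HCN4, KCNJ3, KCNJ5, SCN3B and KCNK5 from the earlier days. They also included pore genes that had been called on at most 1 other day with all libraries. KCNH6, called at day 12 as well, had 2.83, 5.02 and 2.92 CPM in CTRL and 0.396, 0.657 and 0.542 CPM in IND (log2 fold change -2.73, SE 0.33, adjusted p = 0.000189). CACNA1E, the R-type calcium channel, had 5.37, 4.42 and 4.63 CPM against 1.04, 1.46 and 1.41 CPM (-1.87, SE 0.24, 0.000278), and CACNA1A, the P/Q-type channel of presynaptic terminals, 14.1, 15.9 and 10.8 CPM against 5.85, 3.29 and 4.59 CPM (-1.57, SE 0.22, 0.000609). In these 3 genes the CTRL libraries had risen since day 8 and lay above all IND libraries.

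Of the delayed rectifier and transient potassium channels, KCNA2 had 1.95, 2.25 and 1.67 CPM in CTRL at day 14 and 0.457, 0.463 and 0.639 CPM in IND (log2 fold change -1.89, SE 0.33, adjusted p = 0.00262). KCNA4 had 2.67, 2.04 and 1.87 CPM against 0.731, 0.657 and 0.174 CPM (-2.11, SE 0.44, 0.00895), a call lost without CTRL replicate 1 (0.0555), and KCNB2 had 2.11, 2.91 and 1.42 CPM against 0.487, 0.779 and 0.581 CPM (-1.79, SE 0.35, 0.00576). In 1 fit over all 33 libraries none of these 3 calls held (0.198 for KCNA2, 0.0825 for KCNA4 and 0.167 for KCNB2). By family, 7 of the 24 voltage-gated potassium channel pore genes tested were lower at day 14 (5.22% of all genes) and 1 was higher (3.21%). That 1 was KCND2, with 12.1, 11.8 and 10.6 CPM in IND and 8.77, 7.44 and 4.96 CPM in CTRL (0.70, SE 0.19, 0.0386), and it was lost without CTRL replicate 2 (0.0699) or 3 (0.0727) or any IND library (0.124, 0.107 and 0.0917) and in the fit over all libraries (0.174).

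The sodium channel pore genes split at day 14. SCN3A had 11.0, 7.44 and 8.86 CPM in CTRL and 3.08, 5.67 and 3.18 CPM in IND (log2 fold change -1.19, SE 0.25, adjusted p = 0.0106, lost without CTRL replicate 1, 0.0597, or IND replicate 3, 0.0722). SCN2A, its neighbour on chromosome 2 and the main sodium channel of excitatory axons, had 0.829, 0.527 and 0.975 CPM in CTRL and 1.95, 2.24 and 1.86 CPM in IND (1.38, SE 0.32, 0.0146, lost without CTRL replicate 1, 0.0510, or IND replicate 2, 0.0581). The annotated spans of SCN2A and SCN3A overlap on opposite strands, so their counts are uncertain. In 1 fit over all 33 libraries neither call held (0.188 for SCN3A and 0.374 for SCN2A). In all, 3 of 9 sodium channel pore genes tested were lower (5.22% of all genes) and 1 higher (3.21%) on that day.

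Markers of neurons moved in the same direction as the channel genes lower in IND at day 14, and not as KCND2 and SCN2A, which were higher. The 20 neuron markers summed to between 70.2 and 115 CPM at day 4, and at day 14 to between 867 and 1360 CPM in CTRL and between 507 and 608 CPM in IND. All 20 were higher in CTRL at day 14 than at day 4, and 17 of 20 were lower in IND than in CTRL at day 14, with a median log2 fold change of -1.40. At days 6, 8, 10 and 12, 2 of 18, 12 of 20, 9 of 20 and 12 of 20 were lower, and none was higher. At day 10 without IND replicate 2, 17 of 20 were lower. Of the 8 markers of neural crest and glia, 4 were lower in IND at day 6, 5 at day 8, 0 at day 10 (5 without IND replicate 2), 4 at day 12 and 6 at day 14, on the last day with sums of 354 to 428 CPM in IND and 631 to 1046 CPM in CTRL. The part of these markers' cells in the lower channel genes was not tested, and in bulk RNA fewer cells of a type and less RNA per cell cannot be told apart.

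**Figure D5:**
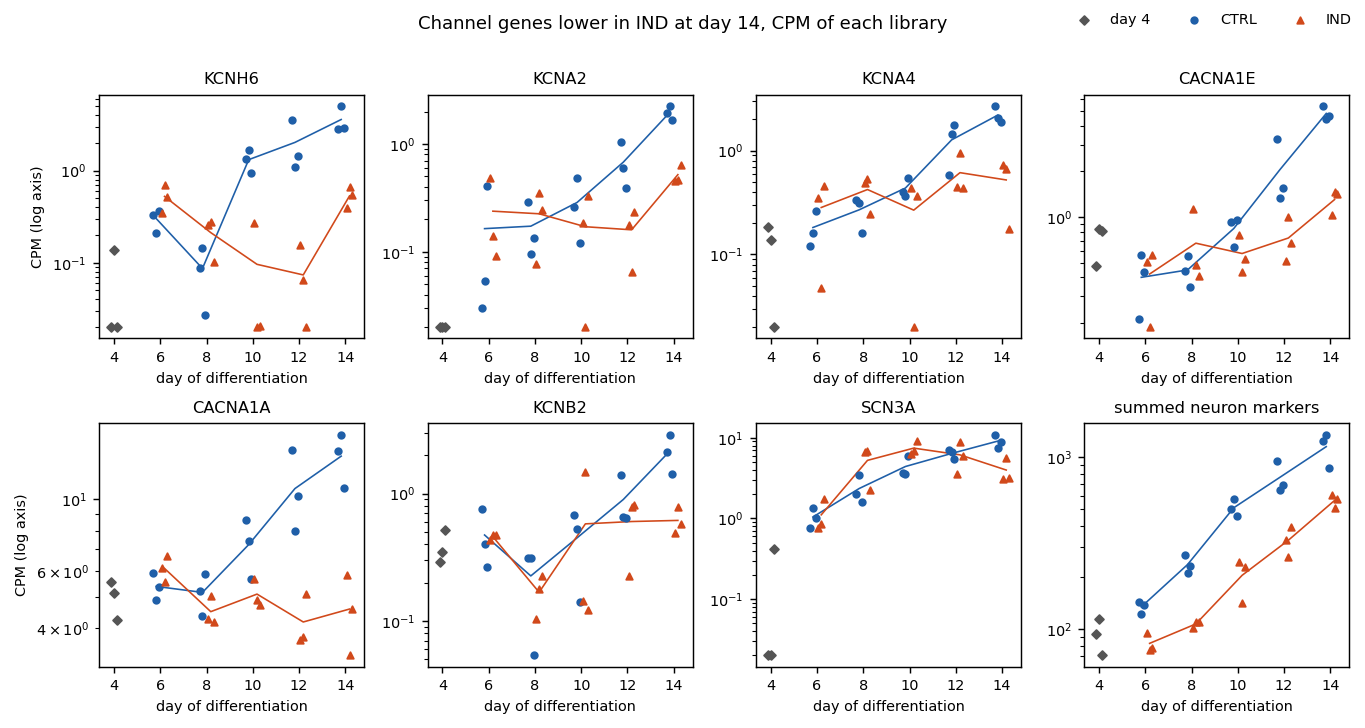
CPM (y axis, log scale) of 7 channel genes lower in IND at day 14 and of the sum of 20 neuron markers, by day of differentiation (x axis). Each point is 1 library, lines join group means and values under 0.02 CPM are drawn at 0.02; in all 8 panels the IND libraries of day 14 lie below the CTRL libraries.

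Markers of cardiac muscle were also present. The 14 genes summed to 345 to 447 CPM in CTRL and 193 to 226 CPM in IND at day 6, and to 254 to 331 CPM and 139 to 150.4 CPM at day 8. At day 10 the sums were 305 to 341 CPM and 188 to 203 CPM. The groups overlapped at day 12 (218 to 298 CPM in CTRL and 179 to 318 CPM in IND) and at day 14 (149 to 274 CPM and 141 to 162 CPM). Of the cardiac markers tested, 3 of 11 were lower in IND at day 6, 2 of 11 at day 8, 1 of 12 at day 10 (3 without IND replicate 2), 0 of 13 at day 12 and 1 of 10 at day 14. Their median log2 fold changes, in the order of the days, were -0.59, -0.42, 0.18 (0.11 without day 10 IND replicate 2), 0.23 and -0.13. Day 10 thus had lower cardiac sums in IND beside a slightly positive median. The part of the cardiac markers in the differences of HCN4, KCNJ3 and KCNJ5 was not tested. The 10 markers of coelomic epithelium and early gonad summed to 925 to 1194 CPM in CTRL and 687 to 760 CPM in IND at day 14, when 5 of 9 were lower. Their sums also lay apart at day 6, but overlapped at days 8 and 12. At day 10 IND replicate 2 (1667 CPM) lay above the CTRL libraries and the other IND libraries below them. Of 8 endothelial markers, 0 were higher in IND at day 6, 5 at day 8, 2 at day 10 (6 without IND replicate 2), 3 at day 12 and 0 at day 14, and 1 was lower at day 6. Of 8 smooth muscle markers, 3 were higher and 3 lower at day 8 and 2 lower at day 14, and of 8 skeletal muscle markers, 2 could be tested at day 8 with none called and 4 at day 14 with 1 lower. Of the pluripotency markers tested, 1 of 7 was lower in IND at day 8 and none of 6 at day 14. The part of these cell types in the channel results was not tested.

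The HCN genes differed in level and in course. HCN4 had the highest mean over the groups (5.24 FPKM), then HCN3 (2.19 FPKM) and HCN2 (0.585 FPKM). Against day 4, HCN4 rose by a log2 fold change of 3.14 (SE 0.26) and HCN3 by 1.45 (SE 0.31) in CTRL by day 14. HCN2 was not called between IND and CTRL on any day, with log2 fold changes between -0.85 at day 8 and -0.15 at day 6. HCN3 was lower in IND at day 8 (-0.50, SE 0.14, adjusted p = 0.0318), a call lost without CTRL replicate 1 (0.104) or 3 (0.139) or IND replicate 1 (0.0541) or 2 (0.0843) and in 1 fit over all 33 libraries (0.273).

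Among the 102 channel genes with at least 1 CPM in some group, the pattern of CACNA1C over the 11 group means was most like that of HCN4, with a Pearson correlation of 0.944 of log2 CPM. CACNA2D1 (0.904), KCNJ5 (0.837) and SCN3B (0.778) were also among the 5 most alike. This is a description over 11 means that share libraries and days, given without a test.

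Whether the difference between IND and CTRL changed over the days was tested with the 4 interaction terms of day and induction over the 30 libraries after day 4. Of 124 channel genes tested, 9 were called at an adjusted p under 0.05, against 2.38% of all 22442 genes. KCNK3, a background potassium channel sensitive to acid, had the smallest value (adjusted p = 0.000455): it had 0.857, 1.20 and 0.771 CPM in IND and 2.51, 1.70 and 1.99 CPM in CTRL at day 6, and 14.3, 16.3 and 18.1 CPM against 11.0, 12.2 and 11.6 CPM at day 14. Its libraries lay below CTRL at day 6, where it was not called (0.0636), and above it at day 14 (0.0345), with no overlap on either day. The day 14 call was lost without CTRL replicate 1 (0.131) or IND replicate 2 (0.0963) or 3 (0.146) and in 1 fit over all libraries (0.164). KCNH6 (0.000931), SCN3B (0.00202), CACNA1A (0.00251), KCNJ3 (0.00434), CACNA1G (0.0226) and KCNH5 (0.0276) were among the genes named above. KCNS3 (0.0349) and KCNQ3 (0.0392) fell outside the rule for naming genes and are named after their values were seen. HCN4 was not among the 9.

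These calls were mostly lost when all libraries of 1 replicate number were dropped. KCNH6 kept its call without replicates 1 (0.0253) and 2 (0.0305) and not without 3 (0.0560), KCNK3 without replicate 2 alone (0.0112, against 0.0545 and 0.156), and KCNJ3 without replicate 2 alone (0.00199, against 0.273 and 0.191). The other 6 genes lost theirs in each case. Without day 10 IND replicate 2 all 9 remained, and 17 channel genes were called.

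Genes that work with these channels and were listed from general knowledge (calmodulins, intracellular calcium release channels, ion pumps and other partners, 44 in all) moved in both directions. In IND, 9 of 41 tested were higher (7.49% of all genes) and 6 lower (6.67%) at day 8. At day 14, 4 of 43 were higher (3.21%) and 3 lower (5.22%), the latter near the share of all genes. ATP1B1, a sodium pump subunit, was higher at day 14 (log2 fold change 0.71, SE 0.08), while ATP2B2, a plasma membrane calcium pump (-2.29, SE 0.30), was lower. At day 8 the calcium release channel RYR2 was lower (-1.67, SE 0.36) and DPP6, which accompanies KCND channels, was higher (2.25, SE 0.54). In CTRL at day 14 against day 4, 20 of 41 were higher (24.6% of all genes) and 8 lower (22.9%).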

How the data were processed

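RNA-seq of 33 libraries in 11 groups was analysed from the table the authors deposited, which holds raw read counts and FPKM per gene. Per the labels and the study's methods, reads were trimmed with fastp (0.23.2), aligned to GRCh38 with HISAT2 (2.0.5) and counted with featureCounts (1.5.0-p3), and the deposited FPKM values were scaled by the authors to library size and gene length. Counts were tested in R 4.3.3 with edgeR 4.0.16 (TMM, filterByExpr, robust quasi-likelihood fit) on the 6 libraries of each comparison, with Benjamini-Hochberg adjustment over all genes tested and a threshold of 0.05. The scripts were tested on simulated data. CPM values used TMM factors over all 33 libraries. Groups came from the sample labels. No replicates were pooled or left out.

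The channel genes, the marker lists (pluripotency, neuron, neural crest and glia, cardiac, skeletal and smooth muscle, endothelium, coelomic epithelium and early gonad) and the partner list were chosen with earlier results of these data known. Genes were named if they were among up to 6 per direction with the largest log2 fold change in a comparison (called, average log2 CPM of at least 0, libraries not overlapping), called in 1 direction on 4 or 5 days, among the 10 highest by FPKM, HCN genes, or most like HCN4 in pattern. Each comparison was repeated with DESeq2 1.42.0, with size factors by RLE, without the low count filter, in 1 fit over all 33 libraries, with the replicate number as a block and without each library in turn. Shares over all genes for the counts over days and for day 10 without its divergent library were added after the data were seen. Columns of the authors' own comparisons were not used. Depth limits genes near the floor of 3 counts. Results of some genes are not reported here.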

Additional observations from a re-analysis of the deposited data

Results flagged for a closer look

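The difference between IND and CTRL changed over days 6 to 14 in 9 channel genes by edgeR's test of the day by induction interaction over 30 libraries. The adjusted p was 0.000455 for KCNK3, 0.000931 for KCNH6, 0.00202 for SCN3B, 0.00251 for CACNA1A, 0.00434 for KCNJ3, 0.0226 for CACNA1G, 0.0276 for KCNH5, 0.0349 for KCNS3 and 0.0392 for KCNQ3. With replicate 1 left out of every group 1 channel gene was called, with replicate 2 left out 7 and with replicate 3 left out 0.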

How the results depend on the processing

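Over 285 named results and their alternatives, 2798 of 3132 values kept their side of the threshold, 188 lost a call and 145 gained one. Values called in neither fit were counted among the 2798 whatever their direction. A reversal was counted only where the gene was called in either fit, as in 1 value. That 1 was KCNJ4 at day 10, with a log2 fold change of 0.42 with all libraries and, without 1 library in turn, values from -0.36 (without IND replicate 2) to 0.70. The count of channel genes called at day 10 was 31 by DESeq2, 44 in 1 fit over all 33 libraries and 0 with the replicate block, at day 12 it was 33 by DESeq2, and at day 14 it was 14 in the fit over all libraries. The interaction count was 30 without a filter on low counts and 17 without day 10 IND replicate 2. Leaving out 1 library at a time gave 6 to 17 genes at day 6, 22 to 43 at day 8, 0 to 50 at day 10, 11 to 28 at day 12 and 17 to 35 at day 14 for IND against CTRL, and 19 to 41, 39 to 56, 55 to 73, 60 to 77 and 64 to 79 for CTRL against day 4. For the interaction, day 10 IND replicate 2 was the only single library left out. The other interaction refits with libraries left out dropped all those of 1 replicate number at once, with the counts given above. The cause of these shifts was not tested.

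Same-numbered libraries showed little common deviation: the correlation of deviations lay between -0.107 and 0.0781 over 15 pairs of IND and CTRL libraries and between -0.109 and 0.138 over 15 pairs of CTRL and day 4 libraries. The labels give these libraries a shared number and nothing more, and the correlations cannot show whether they were handled together. With the replicate block, the counts for IND against CTRL were 18, 38, 0, 22 and 32 at days 6 to 14, those for CTRL against day 4 were 36, 50, 58, 65 and 71, and that of the interaction was 9. The block ended every call of day 10, with an adjusted p of 0.0703 for HCN4, 0.111 for KCNJ3, 0.0504 for KCNMA1, 0.129 for KCNJ5, 0.0905 for SCN3B, 0.127 for CACNA1G and 0.148 for CACNA2D1, and that of HCN3 at day 8 (0.0513).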
